A study of Mus musculus with 12 samples.

Results

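The genes described here are those that mark the lymphocytes, macrophages, dendritic cells and mast cells of the intestinal mucosa. Of 38 listed symbols, 37 were found by name in the adult table and by Entrez Gene identifier in the neonate table, out of 23319 genes in both tables. They were 13 T cell and cytotoxic lymphocyte genes, 7 B cell and plasma cell genes, 8 myeloid genes, 6 genes of MHC class II antigen presentation, 2 mast cell proteases, and Ptprc, which encodes the CD45 phosphatase carried by all white blood cells. The listed symbol Adgre1 was dropped by that rule; both tables carry the same gene under its older symbol Emr1, and its values are given apart from the 37 genes.

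RNA-seq was run on whole small intestine of C57BL/6 mice in 4 groups of 3 libraries: KO adults, WT adults, KO neonates and WT neonates. Adults were 10 weeks old and neonates 12 days old, and each library pooled RNA from 2 mice. KO is labelled an intestinal knockout of NCoR1, a corepressor protein that nuclear receptors use to hold genes off by recruiting histone deacetylase, and WT is wild type. The sources used here name neither the promoter that drove the deletion nor the meaning of F/FUN and DIECUN, the names the design text gives the mice. The series title speaks of epithelial cells, whereas the frozen intestine was pulverized entire, so each library holds epithelium, connective tissue, muscle, nerves and immune cells together. Nothing in the labels says that the 3 libraries of a group came from separate litters or days, so p-values measure the spread between these pools.

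The intestinal lining holds a dense population of lymphocytes. Intraepithelial T cells sit between the epithelial cells, mostly carry the CD8 alpha chain and the CD103 integrin, and are loaded with granzymes. Plasma cells below the epithelium secrete dimeric IgA joined by the J chain, which epithelial cells carry into the lumen on the polymeric immunoglobulin receptor. Macrophages of the wall depend on the receptor encoded by Csf1r, and macrophages, dendritic cells and B cells show peptides to helper T cells on MHC class II. In mice the adaptive part of this system fills out around weaning, after the age of the neonates sampled here.

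Class II genes share a promoter module in which an X box, bound by the RFX complex, lies shortly before a Y box, bound by NF-Y, and the coactivator CIITA acts through both. Promoters of 24 of the 37 genes were in the RefSeq table for GRCm38.p6, each reaching from 250 bases before to 50 bases after the gene start. H2-Aa (chr17:34287774-34288073, minus strand) and H2-Eb1 (chr17:34305617-34305916, plus strand) are shown because they carried the module's core letters in this order, 10 to 40 bases apart. The letters are GCAAC of the X box and CTGATTGG of the Y box, both in capitals.
H2-Aa: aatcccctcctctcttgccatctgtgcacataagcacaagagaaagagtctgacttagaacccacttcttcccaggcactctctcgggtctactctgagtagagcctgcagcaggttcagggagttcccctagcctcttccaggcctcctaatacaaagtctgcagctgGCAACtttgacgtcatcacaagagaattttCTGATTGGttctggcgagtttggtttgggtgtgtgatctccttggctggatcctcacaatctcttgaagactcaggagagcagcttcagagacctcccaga
H2-Eb1: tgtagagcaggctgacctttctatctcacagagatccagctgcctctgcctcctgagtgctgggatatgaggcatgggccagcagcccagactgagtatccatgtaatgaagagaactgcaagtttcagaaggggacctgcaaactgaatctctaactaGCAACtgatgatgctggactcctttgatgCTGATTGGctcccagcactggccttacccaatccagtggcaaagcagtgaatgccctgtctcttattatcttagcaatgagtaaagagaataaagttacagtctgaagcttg
Searched on both strands, CTGATTGG occurred in 4.10% and GCAAC in 35.2% of all 32851 promoters of that length. The pair, with GCAAC 10 to 40 bases before CTGATTGG, occurred in 0.134%, or 44 promoters of 42 genes. No other of the 24 promoters held the pair. A match of letters is a description of the window and not a bound site.

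The promoters of Gzma and Gzmb, which encode granzymes A and B, are shown because these genes were among those called higher in KO adults. Gzma lies at chr13:113100932-113101231 on the minus strand and Gzmb at chr14:56262285-56262584 on the minus strand of GRCm38.p6. Capitals mark TGTGGT, the core letters of the site that RUNX factors bind, or its reverse complement ACCACA. The Gzma promoter also holds GCAAC and, more than 40 bases farther on, CTGATTGG, both left in lower case.
Gzma: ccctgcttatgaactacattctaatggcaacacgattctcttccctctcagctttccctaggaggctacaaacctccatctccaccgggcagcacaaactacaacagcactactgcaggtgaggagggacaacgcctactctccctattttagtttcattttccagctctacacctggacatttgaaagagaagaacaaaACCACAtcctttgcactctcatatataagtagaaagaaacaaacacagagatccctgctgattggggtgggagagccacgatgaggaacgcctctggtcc
Gzmb: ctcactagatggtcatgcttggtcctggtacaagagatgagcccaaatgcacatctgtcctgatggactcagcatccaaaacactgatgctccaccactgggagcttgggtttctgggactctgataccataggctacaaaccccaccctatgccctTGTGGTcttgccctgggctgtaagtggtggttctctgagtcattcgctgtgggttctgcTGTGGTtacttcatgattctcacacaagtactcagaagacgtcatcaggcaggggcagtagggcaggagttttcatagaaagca
TGTGGT, searched on both strands, occurred in 16.8% of the 32851 promoters, so a match in a promoter is common.

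Levels are given as CPM, the reads of a gene per 1000000 reads in genes of the same library, except where RPKM, which also divides by exon length, is named. Libraries held 11912305 to 13057329 reads in genes in KO adults, 9775420 to 11769729 in WT adults, 5930748 to 8314138 in KO neonates and 8443540 to 9340917 in WT neonates. Ncor1 itself was lower in every KO library than in every WT library of its age, with a log2 difference of -0.58 in adults and -0.97 in neonates. The intestinal markers Vil1, Cdx1, Cdx2, Fabp2, Lyz1 and Alpi were detected in every library. Differences are KO over WT on the log2(CPM + 1) scale with limma, a gene was tested with at least 1 CPM in 3 libraries, and a call means p under 0.05 after Benjamini-Hochberg adjustment over all tested genes. The +1 makes differences of genes at a few CPM smaller than their ratios.

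Among all genes, 19.4% of 13463 were called in adults and 21.2% of 14215 in neonates, more of them lower in KO (13.9% lower and 5.50% higher in adults, 16.0% lower and 5.21% higher in neonates). Of the lymphocyte and myeloid genes, 3 of 36 tested were called in adults, all higher in KO, and 7 of 33 tested in neonates, all lower in KO. The neonate count was close to the share among all genes and the adult count was below it, so neither count sets these genes apart. The median difference of all genes was -0.11 at both ages, and 67.1% of all differences in adults and 71.3% in neonates were negative, or 50.5% and 53.7% under TMM. TMM scaling, which removes most of that offset, moved it by 0.109 in adults and 0.094 in neonates. Under TMM 5 members were called higher and 0 lower in adults, beside 9.91% and 6.37% of all genes, and 1 higher and 3 lower in neonates, beside 8.99% and 7.72%. Under TMM 16.3% of all genes were called in adults and 16.7% in neonates. EdgeR called 4 members in adults, beside 16.0% of all genes, and 2 in neonates, beside 16.8%. DESeq2 called 7 in adults, beside 13.5% of all genes, and 1 in neonates, beside 11.1%. The tested members had a median difference of -0.074 in adults and -0.12 in neonates.

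**Figure D1:**
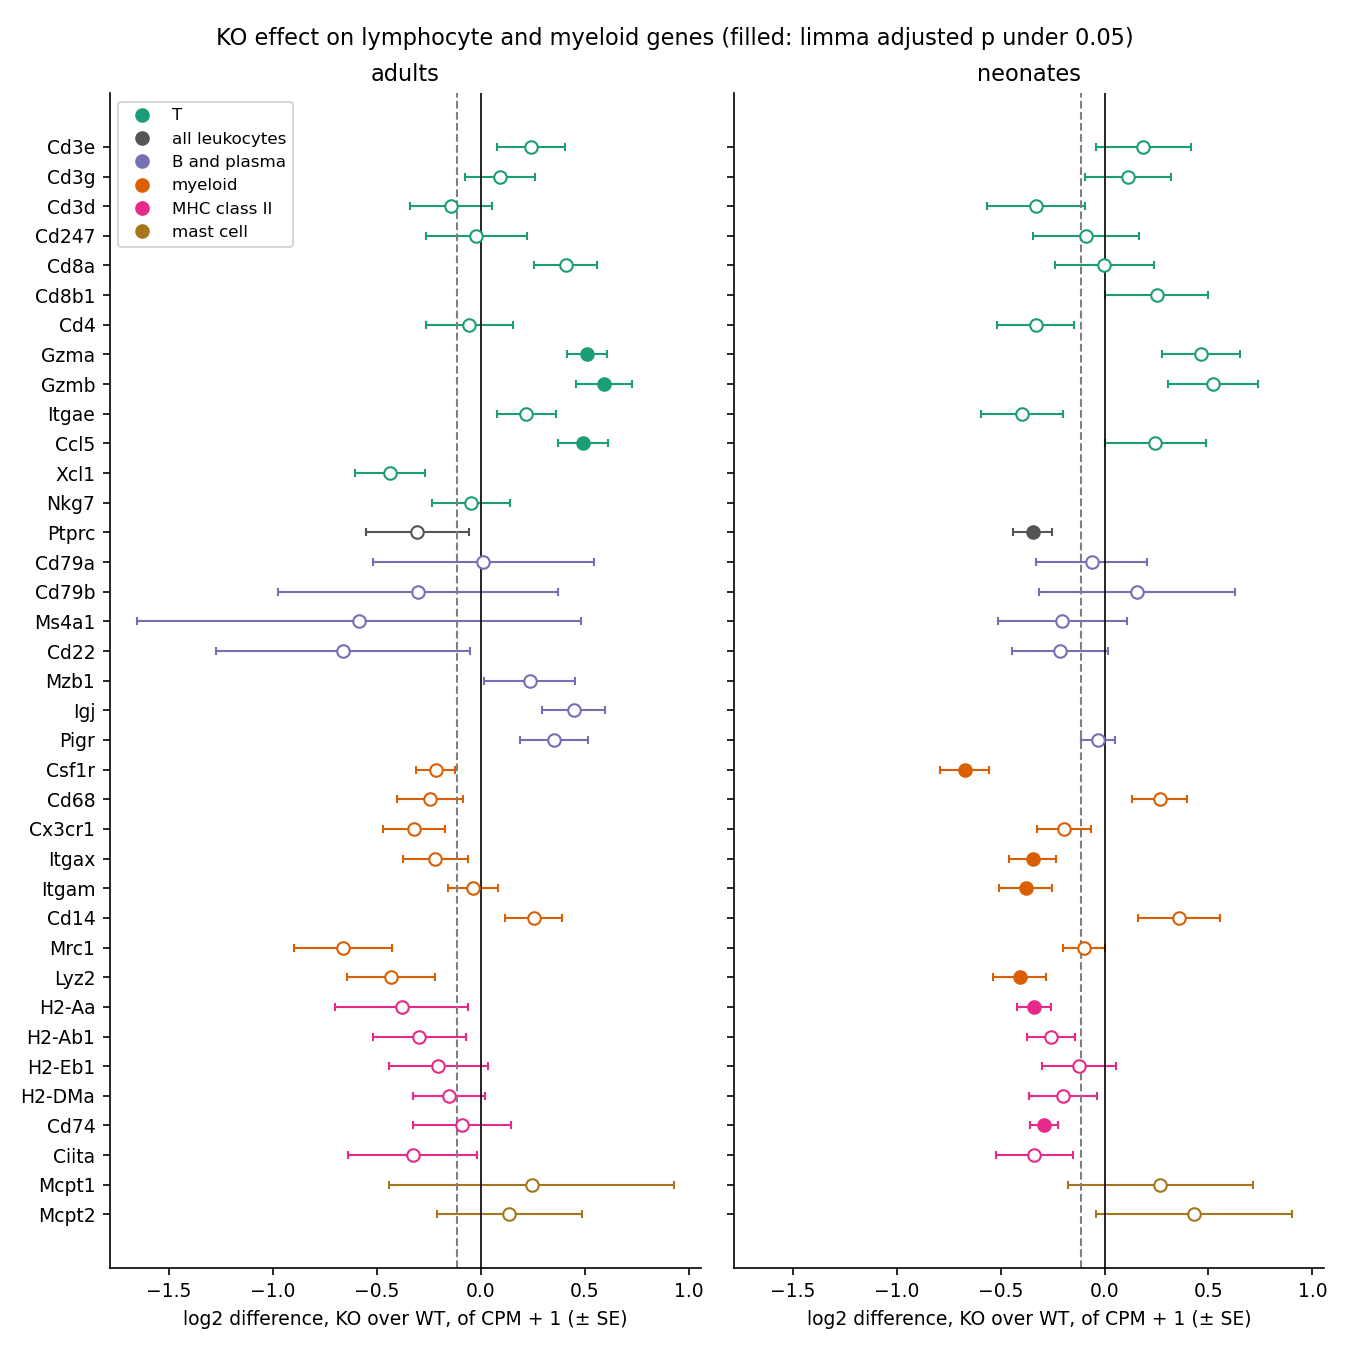
Log2 difference, KO over WT, of CPM + 1 (x axis, ± SE of the limma fit over 3 KO and 3 WT libraries) for each tested gene (y axis, coloured by lineage), with adults on the left and neonates on the right; filled points had a limma adjusted p under 0.05 and the dashed line is the median of all tested genes (-0.11 at each age). The 3 filled points in adults are Gzma, Gzmb and Ccl5, to the right of 0, and the 7 in neonates lie to the left of 0.

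The cytotoxic lymphocyte genes Gzma, Gzmb and Ccl5 were higher in KO adults than in WT adults, and the T cell receptor complex genes were not called. Granzymes are serine proteases that killer cells release into their targets, and Ccl5 encodes a chemokine that effector T cells secrete. Of the 12 T cell genes tested in adults, 3 were called higher and 0 lower, beside 5.50% higher among all genes, and their median difference was 0.16. In bulk tissue, more or fewer cells of a type and more or less RNA per cell cannot be told apart.

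Gzma (chr13:113884035-113891189 in mm9) had 73.8, 60.7 and 64.7 CPM in KO adults, against 50.7, 45.3 and 42.8 CPM in WT adults. Every KO library lay above every WT library, with a log2 difference of 0.51 ± 0.10 (SE), limma adjusted p = 0.00299. Relative to the median of all genes the difference was 0.62, and 0.64 under TMM. The call held when any 1 of the 6 adult libraries was left out.

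Gzmb (chr14:56877695-56881097 in mm9) had 35.9, 27.8 and 31.4 CPM in KO adults, against 25.4, 19.3 and 17.8 CPM in WT adults. The groups did not overlap, with a log2 difference of 0.59 ± 0.13 (SE), limma adjusted p = 0.0105. Without WT adults 2 its limma adjusted p was 0.0567, and it was called when any other adult library was left out.

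Ccl5 (chr11:83339281-83344020 in mm9) had 27.9, 21.7 and 24.8 CPM in KO adults, against 19.7, 15.6 and 16.7 CPM in WT adults. Here too the groups did not overlap, with a log2 difference of 0.49 ± 0.12 (SE), limma adjusted p = 0.0121. Its limma adjusted p was 0.0515 without KO adults 1, 0.0519 without KO adults 3 and 0.0524 without WT adults 2. In all, 4 of the 12 tested T cell genes had every KO adult library above every WT adult library, beside 10.4% of all genes tested in adults.

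Cd8a was the fourth. It encodes the CD8 alpha chain and had 18.8, 12.3 and 13.9 CPM in KO adults, against 11.6, 12.0 and 9.31 CPM in WT adults, with a log2 difference of 0.41 ± 0.15 (SE), limma adjusted p = 0.0788. Limma did not call it without TMM. It was called with TMM (limma adjusted p = 0.0301), by edgeR (adjusted p = 0.0331), by DESeq2 (adjusted p = 0.0319) and by limma without KO adults 2 (adjusted p = 0.0459). Cd8b1, the beta chain gene of conventional CD8 T cells, had 0.403, 0.153 and 0.756 CPM in KO adults, against 0.850, 0.444 and 0.307 CPM in WT adults, under the minimum for testing. Its reads are also the less certain because 7.16% of its 36-base windows also occur in another gene, most often in Gnal.

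The CD3 genes encode the signalling chains that every T cell receptor needs. Cd3e had 12.4, 8.73 and 8.23 CPM in KO adults, against 9.01, 8.52 and 6.65 CPM in WT adults, with a log2 difference of 0.24 ± 0.16 (SE), limma adjusted p = 0.318. Cd3g, Cd3d and Cd247 had differences of 0.094 (limma adjusted p = 0.730), -0.14 (limma adjusted p = 0.645) and -0.021 (limma adjusted p = 0.963) in adults. KO and WT adult libraries overlapped in all 4 of these genes. The sign of the Cd247 difference turned positive under TMM, at 0.050.

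Itgae, which encodes the CD103 chain that holds T cells to epithelial E-cadherin, had 15.6, 12.7 and 14.2 CPM in KO adults, against 14.4, 12.2 and 9.72 CPM in WT adults, with a log2 difference of 0.22 ± 0.14 (SE), limma adjusted p = 0.292. Cd4, the coreceptor gene of helper T cells, had 5.48, 5.13 and 3.95 CPM in KO adults, against 6.63, 5.77 and 3.27 CPM in WT adults, a difference of -0.056 (limma adjusted p = 0.878) that turned to 0.047 under TMM. Nkg7, a granule membrane gene of killer cells, had 3.78, 3.91 and 4.20 CPM in KO adults, against 5.86, 3.02 and 3.89 CPM in WT adults, a difference of -0.048 (limma adjusted p = 0.885) that turned to 0.051 under TMM. In each of these the groups overlapped. Xcl1, a chemokine gene of activated killer cells, had 0.805, 0.843 and 0.839 CPM in KO adults, against 1.70, 1.42 and 1.33 CPM in WT adults. All KO values lay below all WT values at about 1 CPM, with a log2 difference of -0.44 ± 0.17 (SE), limma adjusted p = 0.0859. Xcl1 reached the minimum for testing only through the WT adult libraries, where it was higher, so its direction is read no further.

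**Figure D2:**
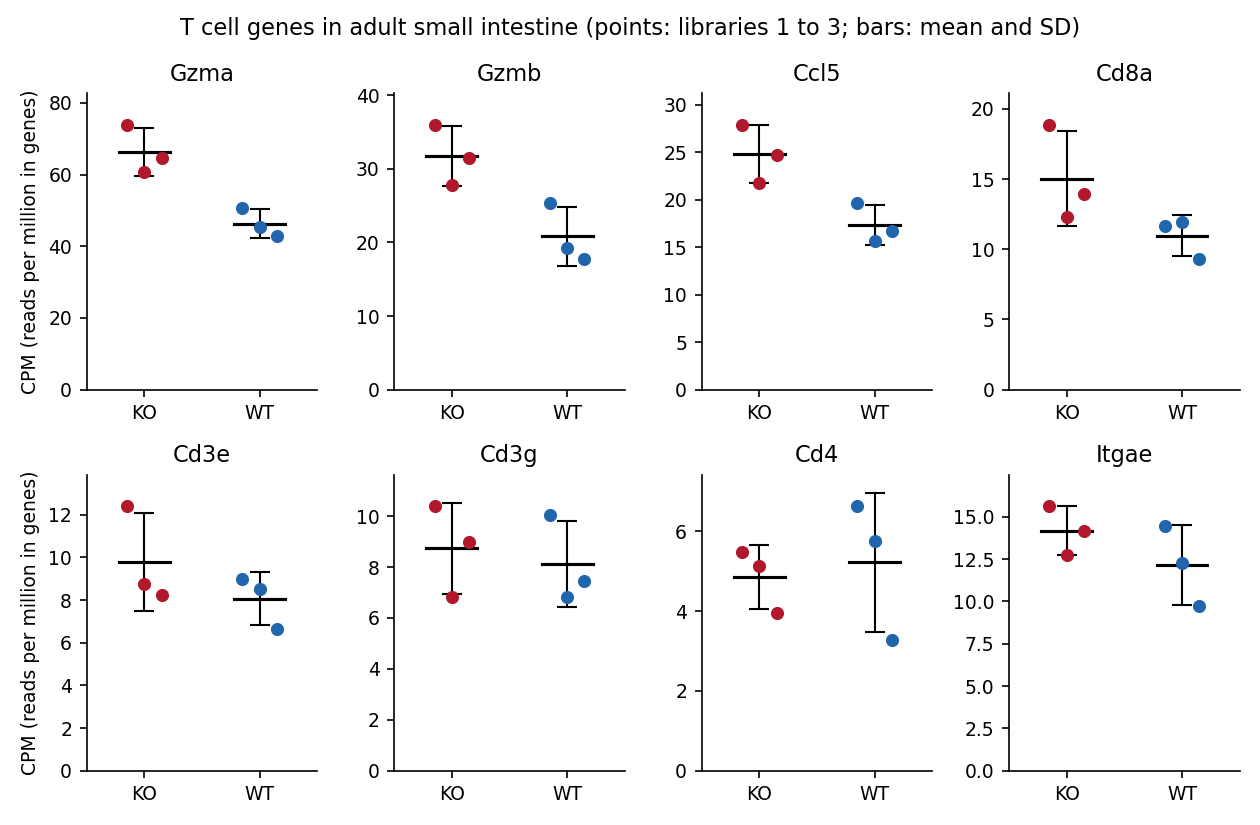
CPM (y axis, from 0) of 8 T cell genes in adult small intestine, with KO left of WT; points are libraries 1 to 3 of each group, and the bars are the mean and SD (n = 3). KO points lie above all WT points for Gzma, Gzmb, Ccl5 and Cd8a, and the groups overlap for Cd3e, Cd3g, Cd4 and Itgae.

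In neonates limma called none of the 11 tested T cell genes, with 2 at an unadjusted p under 0.05, and edgeR and DESeq2 also called none. Gzma had 5.05, 4.81 and 4.05 CPM in KO neonates, against 2.34, 3.96 and 3.08 CPM in WT neonates, with a log2 difference of 0.46 ± 0.19 (SE), limma adjusted p = 0.0870, and Gzmb had 2.15, 2.65 and 2.19 CPM in KO neonates, against 1.41, 1.82 and 0.829 CPM in WT neonates, with a log2 difference of 0.52 ± 0.22 (SE), limma adjusted p = 0.0936. In both genes the KO neonate libraries lay above all WT neonate libraries, as 8.62% of all genes tested in neonates did. Gzma was called under TMM (limma adjusted p = 0.0486), as no other T cell gene was. Ccl5 had 1.89, 1.08 and 1.35 CPM in KO neonates, against 0.469, 1.28 and 1.54 CPM in WT neonates, with overlap and a log2 difference of 0.24 ± 0.24 (SE), limma adjusted p = 0.517.

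Cd3e, Cd3g, Cd3d, Cd247, Cd8a and Cd8b1 ranged from 0.361 to 1.92 CPM in KO neonates and from 0.236 to 2.11 CPM in WT neonates, or 15 to 41 reads over the 3 KO libraries and 19 to 43 over the 3 WT libraries. Cd8b1, untested in adults, had a difference of 0.25 (limma adjusted p = 0.510) in neonates. Itgae had 2.53, 1.80 and 3.20 CPM in KO neonates, against 3.87, 3.64 and 3.20 CPM in WT neonates, with a log2 difference of -0.40 ± 0.20 (SE), limma adjusted p = 0.166. Cd4 had the most reads of the T cell genes in neonates, 119 over the KO libraries and 192 over the WT libraries. Its levels were 4.42, 5.77 and 6.07 CPM in KO neonates, against 6.91, 9.53 and 5.21 CPM in WT neonates, with a log2 difference of -0.33 ± 0.19 (SE), limma adjusted p = 0.229. Xcl1 and Nkg7 were under the minimum for testing, with 3 and 14 reads in all in KO neonates, against 4 and 12 in WT neonates.

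Other T cell and killer cell genes, on lists wider than the members, changed in few cases. The counts on these and the later lists stand beside 5.50% higher and 13.9% lower among all genes in adults and 5.21% higher and 16.0% lower in neonates. Of 17 genes of T cell signalling and adhesion, 11 were tested at each age and none was called by limma, with 2 at an unadjusted p under 0.05 in adults and 1 in neonates, and edgeR and DESeq2 also called none. Of 17 killer lymphocyte genes, 7 were tested in adults and 1 was called. Cd7, a surface gene of T and natural killer cells, had 18.6, 16.7 and 18.3 CPM in KO adults, against 12.8, 13.0 and 8.70 CPM in WT adults, with a log2 difference of 0.61 ± 0.14 (SE), limma adjusted p = 0.00959; leaving out KO adults 3 ended the call (limma adjusted p = 0.0506). Of the 3 tested in neonates, Cd244, a receptor of killer cells, was lower in KO (2.02, 1.80 and 2.36 CPM in KO neonates, against 4.92, 4.50 and 2.37 CPM in WT neonates), with a log2 difference of -0.65 ± 0.22 (SE), limma adjusted p = 0.0381, and its adjusted p was 0.0726 under TMM. For Cd244 leaving out KO neonates 1, KO neonates 2, KO neonates 3, WT neonates 1 or WT neonates 2 ended the call (limma adjusted p = 0.057 to 0.184).

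Among 12 genes of helper, regulatory and innate lymphocytes, 7 were tested in adults and 5 in neonates. Ahr, a ligand-sensing transcription factor that intraepithelial and innate lymphocytes need and that epithelium also makes, was lower in KO adults (31.2, 26.7 and 28.4 CPM in KO adults, against 43.7, 44.7 and 39.1 CPM in WT adults), with a log2 difference of -0.55 ± 0.094 (SE), limma adjusted p = 0.00165. In neonates limma called none of the 5, with 4 at an unadjusted p under 0.05, and edgeR and DESeq2 also called none. Foxp3, Il17a and Il22 were under the minimum for testing at both ages.

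Limma and edgeR called none of the 7 B cell and plasma cell genes tested in adults or the 5 tested in neonates, with 1 in adults and 0 in neonates at an unadjusted p under 0.05. DESeq2 called 2 higher in KO adults, Igj and Pigr, and none in neonates. In adults the B cell genes Ms4a1, Cd22 and Cd79b differed more between libraries than between genotypes. Ms4a1 encodes CD20 of mature B cells and had 5.88, 1.61 and 0.420 CPM in KO adults, against 13.3, 2.13 and 0.920 CPM in WT adults. Cd22, a B cell inhibitory receptor, had 6.76, 3.14 and 2.35 CPM in KO adults, against 14.7, 4.70 and 3.79 CPM in WT adults. Cd79b, a signalling chain of the B cell receptor, had 8.70, 3.98 and 2.77 CPM in KO adults, against 14.2, 4.53 and 3.07 CPM in WT adults. In these 3 genes the libraries numbered 1 were the highest of both groups, and the difference between groups was smaller than the spread within them, at -0.59 (limma adjusted p = 0.747) for Ms4a1, -0.66 (limma adjusted p = 0.506) for Cd22 and -0.30 (limma adjusted p = 0.795) for Cd79b.

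Cd79a, the partner chain of Cd79b, had 4.67, 4.37 and 2.60 CPM in KO adults, against 9.09, 2.48 and 2.05 CPM in WT adults, with a log2 difference of 0.011 ± 0.53 (SE), limma adjusted p = 0.991. Whether the libraries numbered 1 held more lymphoid follicle was not tested. The summed level of 6 follicle and M cell genes was 105, 67.8 and 93.6 CPM in KO adults, against 118, 139 and 98.6 CPM in WT adults, with the highest value in WT adults 2. A further 19 B cell and follicle genes summed to 104, 71.5 and 61.8 CPM in KO adults. In WT adults they summed to 142, 64.6 and 59.0 CPM. In both groups the library numbered 1 was the highest in this sum. Of these 19 genes, 14 were tested in adults and 15 in neonates. Limma called none at either age, with 0 at an unadjusted p under 0.05 in adults and 1 in neonates, and edgeR and DESeq2 called none.

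**Figure D3:**
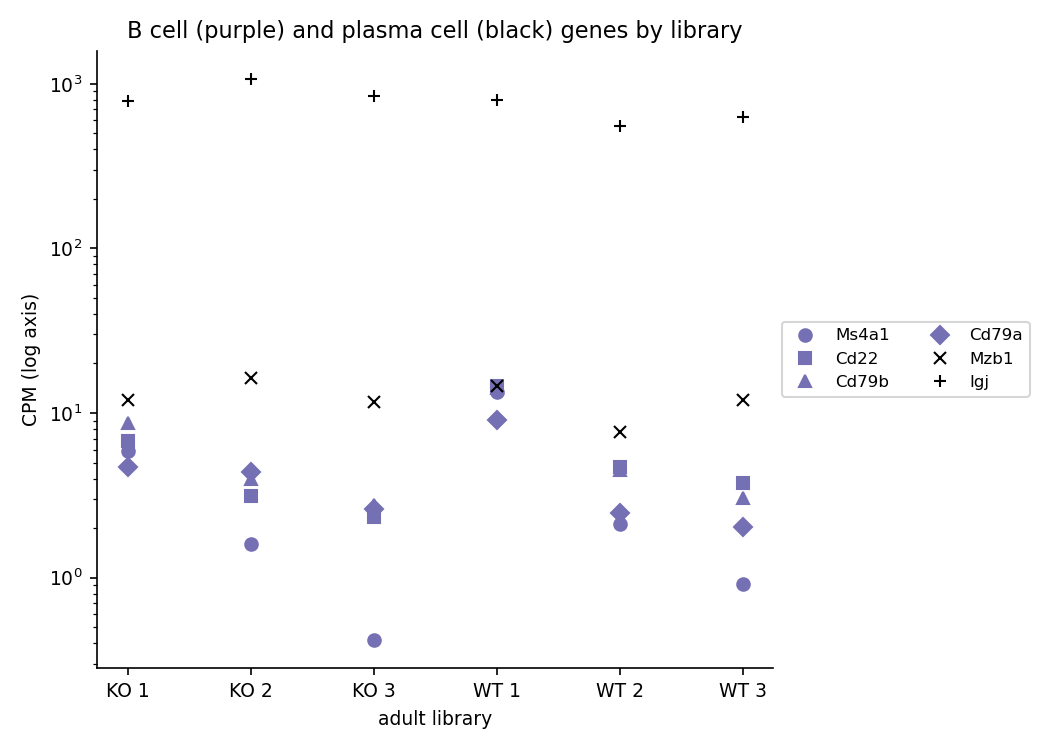
CPM (y axis, log axis) of B cell genes (purple) and plasma cell genes (black) in each adult library (x axis), with KO left of WT. Ms4a1 was at 5.88 and 13.3 CPM in the libraries numbered 1 of KO and WT and between 0.420 and 2.13 CPM in the other 4, whereas Igj lay between 557 and 1072 CPM in all 6.

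The plasma cell genes showed no such gap. Igj, which encodes the J chain, had 790.3, 1072 and 837 CPM in KO adults, against 794, 557 and 632 CPM in WT adults, with a log2 difference of 0.45 ± 0.15 (SE), limma adjusted p = 0.0720. Pigr, the epithelial receptor that carries IgA across the lining, had 3479, 5121 and 4073 CPM in KO adults, against 4005, 3008 and 2909 CPM in WT adults, with a log2 difference of 0.35 ± 0.16 (SE), limma adjusted p = 0.170. In both genes KO adults 1 lay below WT adults 1 and every other KO library lay above every other WT library. For Igj the adjusted p was 0.0437 in limma under TMM, 0.0507 in edgeR and 0.00159 in DESeq2. For Pigr it was 0.0898 in limma under TMM, 0.104 in edgeR and 0.0146 in DESeq2. With WT adults 1 alone left out, limma called both (adjusted p = 0.00939 for Igj and 0.0364 for Pigr). With both adult libraries numbered 1 left out, a setting chosen after seeing these values, both genes were called higher in KO adults, by 0.67 for Igj and 0.63 for Pigr. Mzb1, an endoplasmic reticulum chaperone of plasma cells and marginal zone B cells, had 12.1, 16.2 and 11.8 CPM in KO adults, against 14.6, 7.63 and 12.1 CPM in WT adults, with a log2 difference of 0.24 ± 0.22 (SE), limma adjusted p = 0.489.

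Of 10 further plasma cell genes, all tested in adults, 2 were called, both higher in KO adults. Derl3, a gene of protein quality control in secretory cells, had 5.96, 6.74 and 6.80 CPM in KO adults, against 4.50, 3.99 and 4.19 CPM in WT adults, with a log2 difference of 0.52 ± 0.14 (SE), limma adjusted p = 0.0201, and leaving out KO adults 2, KO adults 3 or WT adults 2 ended the call (limma adjusted p = 0.0642 to 0.084). Ly6k had 1.29, 1.99 and 1.85 CPM in KO adults, against 1.19, 0.267 and 0.307 CPM in WT adults, with a log2 difference of 0.81 ± 0.23 (SE), limma adjusted p = 0.0250, and leaving out KO adults 2, KO adults 3, WT adults 2 or WT adults 3 ended the call (limma adjusted p = 0.0621 to 0.107). Of the plasma cell regulators on the same list, Xbp1 and Prdm1 were not called in adults with all libraries or with any 1 left out. Irf4 had 8.54, 12.6 and 10.2 CPM in KO adults, against 10.6, 4.79 and 5.83 CPM in WT adults, with a log2 difference of 0.55 ± 0.26 (SE), limma adjusted p = 0.183, and was called without WT adults 1 (limma adjusted p = 0.00485). The median difference over the 10 genes was -0.0010.

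In neonates the plasma cell genes Igj and Mzb1 did not pass the filter on low values. Igj had 1.14, 0.361 and 0.168 CPM in KO neonates, against 0.469, 0.535 and 0.474 CPM in WT neonates, or 13 reads in all in each group, and Mzb1 had 21 reads in KO neonates, against 17 in WT neonates. Cd79a, Cd79b, Ms4a1 and Cd22 had differences of -0.062 (limma adjusted p = 0.893), 0.16 (limma adjusted p = 0.855), -0.20 (limma adjusted p = 0.691) and -0.21 (limma adjusted p = 0.555), and the groups overlapped in each. Pigr had 378, 329 and 305 CPM in KO neonates, against 379.5, 317 and 336 CPM in WT neonates, with a log2 difference of -0.031 ± 0.083 (SE), limma adjusted p = 0.828, and its sign turned under TMM, to 0.071.

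The myeloid genes Csf1r, Itgax, Itgam and Lyz2 were lower in KO neonates. They were 4 of 8 tested, with 0 called higher, beside 16.0% lower and 5.21% higher among all genes, and the median difference of the 8 was -0.27. With TMM 1 of the 4 calls, that of Csf1r, was left.

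Csf1r encodes the receptor for colony-stimulating factor of macrophages. It lies at chr18:61265226-61290793 in mm9 and had 159, 123 and 142 CPM in KO neonates, against 200.5, 219 and 258 CPM in WT neonates. Every KO library lay below every WT library, with a log2 difference of -0.67 ± 0.12 (SE), limma adjusted p = 0.00658. Its adjusted p was 0.0324 under TMM, edgeR and DESeq2 also called it, and the call held when any 1 of the 6 neonate libraries was left out. Relative to the median of all genes the difference was -0.56.

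Itgax and Itgam encode the integrin chains CD11c of dendritic cells and macrophages and CD11b of myeloid cells. Itgax (chr7:135273082-135294171 in mm9) had 12.5, 12.9 and 12.5 CPM in KO neonates, against 18.3, 15.6 and 15.2 CPM in WT neonates, with a log2 difference of -0.35 ± 0.11 (SE), limma adjusted p = 0.0359. Itgam (chr7:135206154-135262005 in mm9) had 13.0, 13.0 and 10.3 CPM in KO neonates, against 16.8, 17.5 and 13.9 CPM in WT neonates, with a log2 difference of -0.38 ± 0.13 (SE), limma adjusted p = 0.0383. In both genes the groups did not overlap, as in 28.3% of all genes, where all KO neonate libraries lay below all WT neonate libraries. Neither was called under TMM, with adjusted p of 0.141 for Itgax and 0.121 for Itgam. Leaving out 1 library ended the call in 5 of 6 cases for Itgax, all but the omission of WT neonates 3, with adjusted p of 0.0568 to 0.182. For Itgam it was ended by leaving out KO neonates 3, WT neonates 1 or WT neonates 2, with adjusted p of 0.128 to 0.174. Of the 36-base windows of Itgax 11.8% also occur in another gene, most often in Itgad.

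Lyz2 encodes the lysozyme of macrophages and granulocytes. It lies at chr10:116714597-116719328 in mm9 and had 22.4, 22.3 and 19.7 CPM in KO neonates, against 32.7, 32.5 and 22.3 CPM in WT neonates, with a log2 difference of -0.41 ± 0.13 (SE), limma adjusted p = 0.0338. The lowest WT library, WT neonates 3, lay below the highest KO library, KO neonates 1, and just above the next. The adjusted p was 0.0815 under TMM, and leaving out 1 library ended the call in every case but the omission of WT neonates 3, with adjusted p of 0.0712 to 0.141.

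Lyz2 reads are uncertain because its neighbour Lyz1, the lysozyme of Paneth cells, is nearly the same gene: the coding sequences of both are 447 bases long and differ at 22 positions. The longest run they share, bases 276 to 393 of the coding sequence, counted from its first base, is 118 bases long and is shown because a 36-base read from it cannot tell the genes apart.
Lyz2 and Lyz1: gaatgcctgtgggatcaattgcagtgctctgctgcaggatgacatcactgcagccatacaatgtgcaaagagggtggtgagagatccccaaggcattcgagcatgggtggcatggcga
In all, 27.4% of the 36-base windows of Lyz2 also occur in another gene. Lyz1 had 40.7, 25.1 and 30.3 CPM in KO neonates, against 40.2, 30.8 and 41.0 CPM in WT neonates, with a log2 difference of -0.23 ± 0.19 (SE), limma adjusted p = 0.464. In adults Lyz1 had 1949, 1420.3 and 1387 CPM in KO adults, against 2771, 2577 and 2347 CPM in WT adults, with a log2 difference of -0.71 ± 0.13 (SE), limma adjusted p = 0.00320, and Lyz2 had 28.3, 21.4 and 21.7 CPM in KO adults, against 40.5, 35.1 and 23.3 CPM in WT adults, with a log2 difference of -0.43 ± 0.21 (SE), limma adjusted p = 0.204. The part of Lyz1 reads in the Lyz2 values was not tested.

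The other myeloid genes were not called in neonates and did not share a direction. Cd68, a lysosomal protein gene of macrophages, had 11.4, 9.62 and 10.3 CPM in KO neonates, against 8.79, 8.89 and 7.82 CPM in WT neonates, and all KO libraries lay above all WT libraries (a log2 difference of 0.27 ± 0.13 (SE), limma adjusted p = 0.169). Cd14, the lipopolysaccharide coreceptor gene, had 4.04, 3.13 and 2.70 CPM in KO neonates, against 1.99, 2.89 and 2.13 CPM in WT neonates, with a log2 difference of 0.36 ± 0.20 (SE), limma adjusted p = 0.216. Cx3cr1, the fractalkine receptor gene of resident macrophages, had a difference of -0.20 (limma adjusted p = 0.313). Mrc1, the mannose receptor gene, had a difference of -0.10 (limma adjusted p = 0.529), which became 0.00055 under TMM. Emr1, the F4/80 macrophage gene that the rule dropped and that was added after its values were seen, had 14.2, 11.4 and 11.6 CPM in KO neonates, against 19.6, 20.6 and 13.6 CPM in WT neonates, with a log2 difference of -0.48 ± 0.14 (SE), limma adjusted p = 0.0199 and 0.0518 under TMM, and leaving out KO neonates 2, KO neonates 3, WT neonates 1 or WT neonates 2 ended the call (limma adjusted p = 0.0776 to 0.0998).

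Ptprc, the gene of all white blood cells (chr1:139959436-140071703 in mm9), had 37.5, 33.0 and 37.9 CPM in KO neonates, against 50.3, 48.9 and 39.9 CPM in WT neonates. The groups did not overlap, with a log2 difference of -0.35 ± 0.093 (SE), limma adjusted p = 0.0110, but the adjusted p was 0.0585 under TMM, 0.0589 without KO neonates 2, 0.0729 without WT neonates 1 and 0.0517 without WT neonates 2. In adults Ptprc had 55.2, 38.0 and 31.7 CPM in KO adults, against 63.5, 45.6 and 44.0 CPM in WT adults, with overlap and a log2 difference of -0.31 ± 0.25 (SE), limma adjusted p = 0.442. KO adults 1 and WT adults 1 were the highest of their groups in this gene too.

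**Figure D4:**
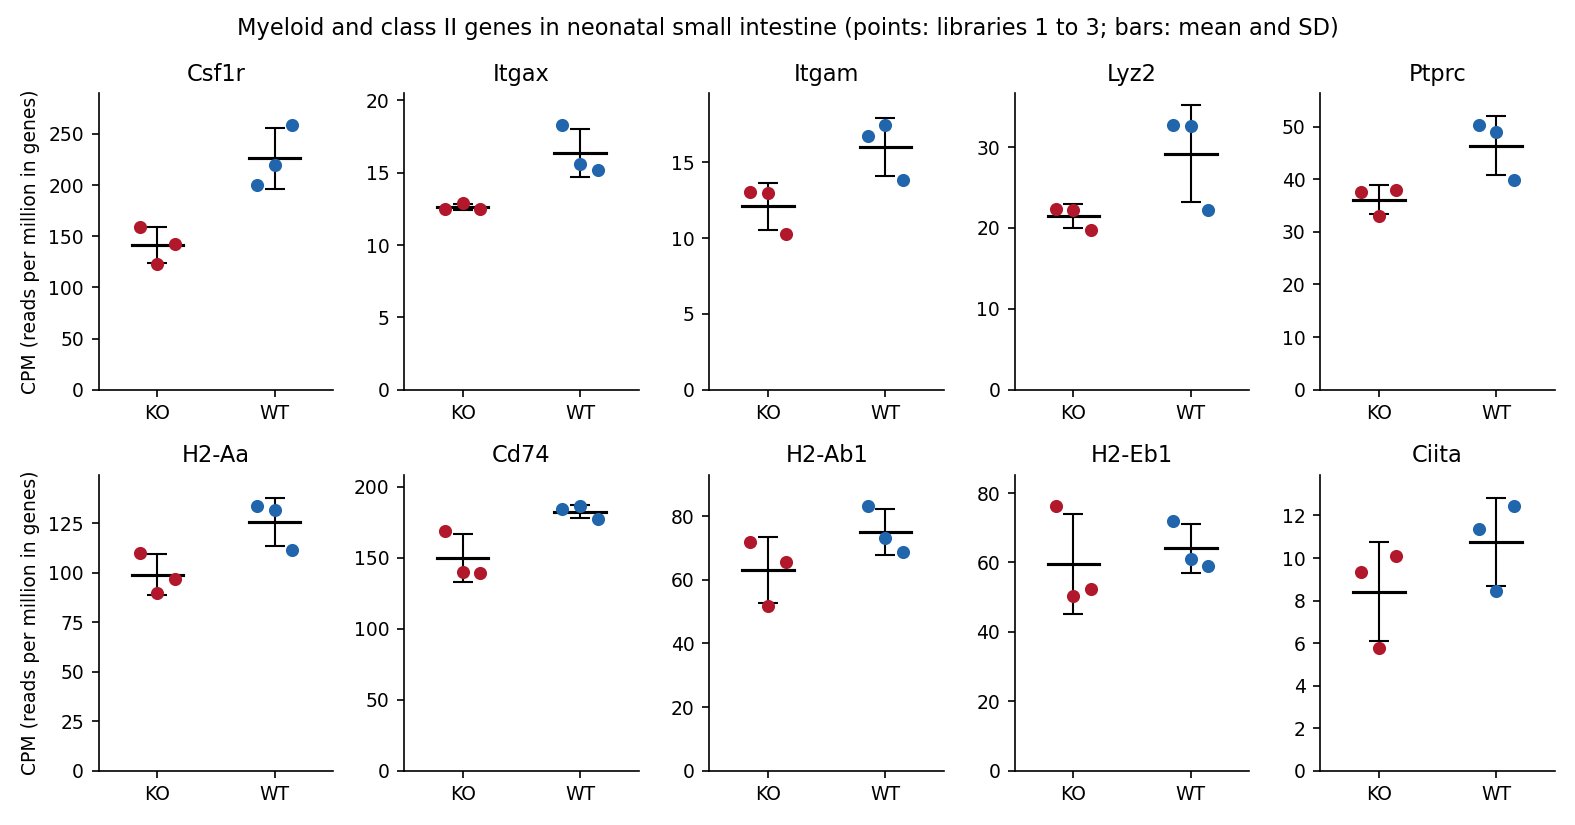
CPM (y axis, from 0) of 5 myeloid and leukocyte genes (top) and 5 class II genes (bottom) in neonatal small intestine, with KO left of WT; points are libraries 1 to 3 of each group, and the bars are the mean and SD (n = 3). Csf1r lay at 123 to 159 CPM in KO neonates, against 200.5 to 258 CPM in WT neonates, while H2-Eb1 and Ciita overlap.

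In adults no myeloid gene was called by limma, with 2 of 8 at an unadjusted p under 0.05. EdgeR called none and DESeq2 called Mrc1 lower. Csf1r had 31.5, 30.8 and 32.2 CPM in KO adults, against 39.1, 38.7 and 32.8 CPM in WT adults; all KO libraries lay below all WT libraries, as in 27.8% of all genes, with a log2 difference of -0.22 ± 0.093 (SE), limma adjusted p = 0.119. Mrc1 had 9.82, 11.6 and 15.4 CPM in KO adults, against 19.6, 26.7 and 14.5 CPM in WT adults, with a log2 difference of -0.66 ± 0.24 (SE), limma adjusted p = 0.0954, and WT adults 3 lay below KO adults 3. Without WT adults 3 the adjusted p was 0.0121 for Mrc1, 0.0453 for Csf1r and 0.00396 for Lyz2.

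Cx3cr1, Cd68 and Itgax had differences of -0.32 (limma adjusted p = 0.151), -0.24 (limma adjusted p = 0.300) and -0.22 (limma adjusted p = 0.348) in adults. Itgam had -0.038 (limma adjusted p = 0.859), which turned to 0.077 under TMM. Cd14 had 6.68, 6.43 and 5.71 CPM in KO adults, against 4.67, 5.41 and 5.22 CPM in WT adults, with all KO libraries above all WT libraries and a log2 difference of 0.25 ± 0.14 (SE), limma adjusted p = 0.217. Emr1 had 6.20, 7.43 and 4.36 CPM in KO adults, against 8.16, 8.87 and 6.85 CPM in WT adults, with a log2 difference of -0.38 ± 0.17 (SE), limma adjusted p = 0.141.

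On the wider macrophage list, 14 of 18 genes were tested at each age. In neonates 2 were called lower, C1qa and C1qb, which encode chains of complement C1q made by tissue macrophages. The TMM setting and edgeR each called 1 gene of the list higher and 1 lower in neonates, and DESeq2 called 1 higher and 0 lower. Among all genes under TMM 8.99% were called higher and 7.72% lower in neonates. C1qb had 29.4, 23.2 and 21.8 CPM in KO neonates, against 31.2, 37.9 and 31.5 CPM in WT neonates, with a log2 difference of -0.43 ± 0.11 (SE), limma adjusted p = 0.00951, and 0.0344 under TMM; leaving out KO neonates 3 or WT neonates 2 ended the call (limma adjusted p = 0.0565 to 0.0618). C1qa had 41.2, 33.6 and 34.2 CPM in KO neonates, against 44.3, 47.1 and 42.8 CPM in WT neonates, with a log2 difference of -0.30 ± 0.088 (SE), limma adjusted p = 0.0201, but 0.112 under TMM, and leaving out KO neonates 2, KO neonates 3, WT neonates 1 or WT neonates 2 ended the call (limma adjusted p = 0.0531 to 0.0876). In adults 1 was called lower. Ctss, a protease that trims the class II invariant chain, had 177, 173 and 149 CPM in KO adults, against 219, 207 and 198 CPM in WT adults, with a log2 difference of -0.32 ± 0.086 (SE), limma adjusted p = 0.0193 but 0.124 under TMM. For Ctss leaving out KO adults 3, WT adults 1 or WT adults 2 ended the call (limma adjusted p = 0.0579 to 0.105). The list's median difference was -0.23 in adults and -0.18 in neonates, or -0.12 and -0.081 under TMM. At each age 12 of 14 differences were negative, beside 67.1% of all genes in adults and 71.3% in neonates, and 9 of 14 were under TMM, beside 50.5% and 53.7%.

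On the list of 16 dendritic cell and monocyte genes, Irf8, a transcription factor gene of these lineages, was higher in KO neonates (117, 115 and 129 CPM in KO neonates, against 94.4, 98.1 and 97.7 CPM in WT neonates), with a log2 difference of 0.31 ± 0.063 (SE), limma adjusted p = 0.00161. It was the 1 call among 13 genes tested in neonates. Of the 11 genes tested in adults, limma, edgeR and DESeq2 called none, and 0 had an unadjusted p under 0.05.

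Class II genes were lower in KO neonates for the alpha chain H2-Aa and the invariant chain Cd74, which escorts class II dimers through the cell. Of the 6 genes 2 were called lower, beside 16.0% of all genes, and 6 of 6 differences were negative, beside 71.3% of all genes. Their median was -0.27, or -0.17 under TMM, where 6 of 6 were negative beside 53.7%. H2-Aa, whose promoter held both boxes (gene at chr17:34419696-34424716 in mm9), had 110.1, 89.8 and 97.0 CPM in KO neonates, against 133, 132 and 111 CPM in WT neonates. Cd74 (chr18:60963503-60972306 in mm9) had 169, 140.2 and 139 CPM in KO neonates, against 184, 186 and 177 CPM in WT neonates. The groups did not overlap in either gene, with a log2 difference of -0.34 ± 0.082 (SE), limma adjusted p = 0.00695 for H2-Aa, and a log2 difference of -0.29 ± 0.069 (SE), limma adjusted p = 0.00480 for Cd74. Under TMM the adjusted p was 0.0309 for H2-Aa and 0.0498 for Cd74, and both were called with any 1 neonate library left out. EdgeR called H2-Aa and not Cd74, and DESeq2 called neither.

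The partner beta chain gene H2-Ab1 had 71.9, 51.6 and 65.6 CPM in KO neonates, against 83.1, 73.2 and 68.8 CPM in WT neonates, with a log2 difference of -0.26 ± 0.12 (SE), limma adjusted p = 0.153. H2-Eb1, whose promoter held the same module, had 76.2, 50.3 and 52.4 CPM in KO neonates, against 72.1, 61.1 and 59.0 CPM in WT neonates, with a log2 difference of -0.12 ± 0.18 (SE), limma adjusted p = 0.687. H2-DMa, which helps load peptides, and Ciita, the class II coactivator, had differences of -0.20 (limma adjusted p = 0.426) and -0.34 (limma adjusted p = 0.230). KO and WT neonate libraries overlapped in these 4 genes. KO neonates 1 was the highest KO library for H2-Aa, H2-Ab1, H2-Eb1 and Cd74, and without it H2-Ab1 and H2-Eb1 were called (adjusted p = 0.0300 and 0.0207).

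In adults no class II gene was called by limma, edgeR or DESeq2, with 0 at an unadjusted p under 0.05, and 6 of 6 differences were negative, beside 67.1% of all genes; that of Cd74 turned to 0.032 under TMM. The WT adult libraries were far apart: H2-Aa had 109.6, 75.5 and 71.5 CPM in KO adults, against 143, 123 and 75.0 CPM in WT adults, and Cd74 had 215, 199.9 and 202 CPM in KO adults, against 294, 229.8 and 156 CPM in WT adults. WT adults 1 was the highest of the 6 libraries and WT adults 3 the lowest for Cd74 and next to the lowest for H2-Aa. Differences were -0.38 (limma adjusted p = 0.466) for H2-Aa, -0.30 (limma adjusted p = 0.407) for H2-Ab1, -0.20 (limma adjusted p = 0.599) for H2-Eb1, -0.15 (limma adjusted p = 0.562) for H2-DMa, -0.092 (limma adjusted p = 0.823) for Cd74 and -0.33 (limma adjusted p = 0.504) for Ciita. Without WT adults 3, H2-Ab1 and Cd74 were called lower in KO adults (adjusted p = 0.00978 and 0.0378).

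Of 13 further genes of the class II pathway, 12 were tested at each age. Rfx5, a subunit of the RFX complex that binds the X box, was lower in KO neonates (26.0, 26.9 and 28.7 CPM in KO neonates, against 34.3, 36.0 and 29.7 CPM in WT neonates), with a log2 difference of -0.28 ± 0.092 (SE), limma adjusted p = 0.0356. In adults Creb1, whose product binds beside the X box, was lower in KO (67.4, 61.2 and 52.7 CPM in KO adults, against 76.0, 71.7 and 76.1 CPM in WT adults), with a log2 difference of -0.31 ± 0.094 (SE), limma adjusted p = 0.0358, as was Nfyb, a subunit of the Y box factor NF-Y (28.8, 27.1 and 23.5 CPM in KO adults, against 35.0, 30.7 and 37.3 CPM in WT adults), with a log2 difference of -0.36 ± 0.11 (SE), limma adjusted p = 0.0288. Under TMM none of the 3 was called, with adjusted p of 0.181, 0.189 and 0.137. For Rfx5 leaving out KO neonates 1, KO neonates 2, WT neonates 1 or WT neonates 2 ended the call (limma adjusted p = 0.0818 to 0.158). For Creb1 leaving out KO adults 2, KO adults 3, WT adults 1, WT adults 2 or WT adults 3 ended the call (limma adjusted p = 0.0648 to 0.172). For Nfyb leaving out KO adults 2, KO adults 3, WT adults 1 or WT adults 3 ended the call (limma adjusted p = 0.06 to 0.138). All of them are expressed in many cell types.

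The mast cell protease genes Mcpt1 and Mcpt2, which mark mast cells of the mucosa, varied more between libraries of a group than between groups. Mcpt1 had 9.34, 3.29 and 2.01 CPM in KO adults, against 3.23, 6.83 and 1.43 CPM in WT adults, and 13.6, 14.4 and 34.9 CPM in KO neonates, against 15.6, 12.4 and 19.9 CPM in WT neonates. Mcpt2 had 4.51, 2.30 and 1.43 CPM in KO adults, against 2.12, 3.55 and 1.33 CPM in WT adults, and 6.57, 9.26 and 19.2 CPM in KO neonates, against 6.33, 6.00 and 11.5 CPM in WT neonates. KO neonates 3 and WT neonates 3 were the highest of their groups in both genes, and in adults KO 1 and WT 2 were. Differences were 0.24 (limma adjusted p = 0.841) and 0.14 (limma adjusted p = 0.816) in adults, and 0.27 (limma adjusted p = 0.730) and 0.43 (limma adjusted p = 0.591) in neonates. They share 3.93% of the windows of Mcpt1 and 2.24% of those of Mcpt2 with other genes.

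Of 12 further mast cell genes, 3 were tested in adults and 6 in neonates. Hpgds, which encodes the prostaglandin D synthase of blood cells and is also made outside mast cells, was lower in KO neonates (55.2, 44.5 and 54.0 CPM in KO neonates, against 107, 106 and 109.8 CPM in WT neonates), with a log2 difference of -1.06 ± 0.077 (SE), limma adjusted p = 5.86e-09. No other gene of the list was called at either age. In adults Hpgds had 7.09, 6.51 and 5.79 CPM in KO adults, against 6.97, 8.52 and 8.39 CPM in WT adults, with a log2 difference of -0.26 ± 0.14 (SE), limma adjusted p = 0.199.

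Genes for signals that recruit or feed these cells changed in both directions. Of 27 homing receptors, chemokines and cytokines, 21 were tested in adults, with 2 called higher and 4 lower, beside 5.50% and 13.9% of all genes, and 22 in neonates, with 3 called higher and 4 lower, beside 5.21% and 16.0%. Il7, a survival cytokine gene for T cells and innate lymphocytes, was lower in KO at both ages. It had 1.37, 1.38 and 1.34 CPM in KO adults, against 3.31, 2.48 and 2.76 CPM in WT adults, with a log2 difference of -0.70 ± 0.16 (SE), limma adjusted p = 0.0104, and 2.78, 3.37 and 2.02 CPM in KO neonates, against 5.98, 8.14 and 5.92 CPM in WT neonates, with a log2 difference of -1.05 ± 0.19 (SE), limma adjusted p = 0.000443. KO and WT did not overlap at either age.

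In neonates Il15, which sustains intraepithelial lymphocytes, was higher in KO (12.9, 10.6 and 10.3 CPM in KO neonates, against 7.73, 6.10 and 6.40 CPM in WT neonates), with a log2 difference of 0.66 ± 0.14 (SE), limma adjusted p = 0.00238. So was Ccl25, the chemokine that draws CCR9-bearing lymphocytes to the small intestine (222, 197 and 214 CPM in KO neonates, against 149, 139.8 and 145 CPM in WT neonates), with a log2 difference of 0.54 ± 0.060 (SE), limma adjusted p = 1.65e-06. Tnfsf13b, which encodes the B cell survival factor BAFF, was also higher (21.6, 17.9 and 14.0 CPM in KO neonates, against 12.3, 10.4 and 7.93 CPM in WT neonates), with a log2 difference of 0.75 ± 0.17 (SE), limma adjusted p = 0.00499. In adults Tnfsf13b was at 1.34 relative to the median of all genes. It was not called there, except without WT adults 3 (limma adjusted p = 0.0347). Il18 and Il34 were among the genes called lower in KO neonates and are named after their values were seen. Relative to the median of all genes they were at -0.40 and -0.38. Leaving out any 1 neonate library other than KO neonates 1 ended the Il34 call (limma adjusted p = 0.0599 to 0.122). In adults Cxcl10, an interferon-induced chemokine, was lower in KO (1.13, 0.613 and 0.839 CPM in KO adults, against 1.95, 2.40 and 2.15 CPM in WT adults), with a log2 difference of -0.77 ± 0.18 (SE), limma adjusted p = 0.00907, and so was Csf2, a growth factor gene for macrophages and dendritic cells (0.805, 0.996 and 0.336 CPM in KO adults, against 2.80, 2.75 and 1.43 CPM in WT adults), with a log2 difference of -0.95 ± 0.22 (SE), limma adjusted p = 0.0101. Csf2 reached the minimum for testing only through the WT adult libraries, where it was higher. Without any 1 of those WT libraries it was not tested. For Csf2 leaving out KO adults 3 also ended the call (limma adjusted p = 0.0585). Il18, an epithelial cytokine gene, was called lower in KO at both ages. In neonates leaving out KO neonates 2, KO neonates 3 or WT neonates 1 ended the call (limma adjusted p = 0.0671 to 0.182). In adults Il18 had 41.2, 31.6 and 47.9 CPM in KO adults, against 66.7, 54.8 and 62.2 CPM in WT adults. Its log2 difference in adults was -0.61 ± 0.14 (SE), limma adjusted p = 0.0158 but 0.0600 under TMM. The 2 called higher in KO adults had larger adjusted p than these and are named after their values were seen. Cxcl16 had a log2 difference of 0.36 ± 0.092 (SE), limma adjusted p = 0.0172, and leaving out KO adults 1, KO adults 3 or WT adults 2 ended the call (limma adjusted p = 0.059 to 0.0608). Il33 had a log2 difference of 0.52 ± 0.13 (SE), limma adjusted p = 0.0203, and leaving out KO adults 1, KO adults 2, WT adults 1, WT adults 2 or WT adults 3 ended the call (limma adjusted p = 0.0504 to 0.0656).

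Markers of some other tissues differed between genotypes beside these genes. The summed level of 11 epithelial markers was 9594 to 9926 CPM in KO neonates, against 7846 to 8504 CPM in WT neonates, that of 7 fibroblast markers was 1869 to 2095, against 2079.8 to 2704 CPM, and that of 8 neuron and glia markers was 124 to 129.5, against 143 to 175 CPM. In adults the fibroblast sum was 391 to 403 CPM in KO, against 491 to 637 CPM in WT, and the neuron and glia sum was 13.1 to 14.7, against 17.5 to 21.7 CPM. The adult epithelial sum overlapped, at 19967 to 23928 CPM in KO and 20846 to 22672 CPM in WT. So did the neonate fibroblast sum, as KO neonates 2 lay above WT neonates 3. In neonates 5 of the 11 epithelial markers were called higher and 1 lower, 3 of 7 fibroblast markers lower, 2 of 8 neuron and glia markers lower and 1 of 8 smooth muscle markers lower, beside 5.21% higher and 16.0% lower among all genes. In adults 1 of 11 epithelial markers was called higher, 4 of 7 fibroblast markers lower, 1 of 6 tested neuron and glia markers lower and 1 of 8 smooth muscle markers lower, beside 5.50% higher and 13.9% lower. Under TMM 7 epithelial markers were called higher and 1 lower in neonates, with 0 fibroblast, 1 neuron and glia and 0 smooth muscle markers lower. In adults that setting called 1 epithelial marker higher and 3 fibroblast, 1 neuron and glia and 0 smooth muscle markers lower. The shares of all genes under TMM were 8.99% higher and 7.72% lower in neonates, and 9.91% and 6.37% in adults. EdgeR and DESeq2 also called 0 fibroblast markers in neonates. No marker of these lists was at 0 in all libraries. The summed smooth muscle level overlapped at both ages. Of the smooth muscle differences 8 of 8 were negative at each age, beside 67.1% of all genes in adults and 71.3% in neonates. Under TMM 6 of 8 were negative at each age, beside 50.5% and 53.7%. All KO libraries lay below all WT libraries for 3 of 8 markers in adults and 1 of 8 in neonates. The shares of all genes were 27.8% and 28.3%. The part of tissue composition in the differences above was not tested.

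The KO effect was not shown to differ between ages for any of the 37 genes. Of these adult-minus-neonate differences limma called 0, beside 5.46% of 14588 genes, and 3 had an unadjusted p under 0.05. Limma with TMM, edgeR and DESeq2 also called 0, beside 5.22%, 4.37% and 5.15% of all genes. The smallest adjusted p was that of Csf1r, with a difference of effects of 0.46 ± 0.14 (SE) and limma adjusted p = 0.0650, followed by Itgae, at 0.62 (limma adjusted p = 0.141), and Cd68, at -0.51 (limma adjusted p = 0.156). Csf1r was called when KO neonates 1 or WT neonates 1 was left out (adjusted p = 0.0328 and 0.0413), and Mrc1 when WT adults 3 was (0.0357). For Gzma and Gzmb the differences of effects were 0.046 ± 0.19 and 0.071 ± 0.24.

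Levels of the 37 genes are set out by age here. The tables of the ages were scaled separately and each age was processed on its own, so these levels are a description with no test. In WT libraries 15 of the 37 genes had every adult value above every neonate value and 6 had every adult value below. For KO these numbers were 17 and 8. The share of all genes that separated by age was not computed. The counts by age, here and below, are therefore not read as a result about these genes. Of the 13 T cell genes 10 were above in WT and 10 in KO, and the median ratio of adult to neonate mean CPM over these genes was 8.05 in WT and 6.79 in KO.

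By deposited RPKM, Gzma had 26.6 ± 4.58 RPKM in adults, against 2.05 ± 0.549 RPKM in neonates in WT (mean ± SD, n = 3 each). Ccl5 had 16.5 ± 3.18 RPKM in adults, against 1.19 ± 0.604 RPKM in neonates. Cd8a had 1.76 ± 0.364 RPKM in adults, against 0.249 ± 0.117 RPKM in neonates and Cd3e had 2.84 ± 0.665 RPKM in adults, against 0.367 ± 0.104 RPKM in neonates. The ages overlapped for Cd4, with 0.861 ± 0.346 RPKM in adults, against 1.34 ± 0.417 RPKM in neonates, for Cd8b1, with 0.194 ± 0.117 RPKM in adults, against 0.292 ± 0.189 RPKM in neonates, and for Cd247.

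Igj had the highest ratio of adult to neonate CPM of the 37 genes, with 158 ± 39.4 RPKM in adults, against 0.134 ± 0.0113 RPKM in neonates in WT and 229.9 ± 36.2 RPKM in adults, against 0.141 ± 0.124 RPKM in neonates in KO. Pigr had 433 ± 114 RPKM in adults, against 51.1 ± 4.46 RPKM in neonates and Mzb1 had 6.36 ± 2.23 RPKM in adults, against 0.408 ± 0.110 RPKM in neonates in WT. The B cell genes Cd79a, Cd79b, Ms4a1 and Cd22 overlapped between ages in WT.

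The macrophage receptor ran the other way. In WT, Csf1r had 4.79 ± 0.843 RPKM in adults, against 33.4 ± 4.22 RPKM in neonates, and Cx3cr1 had 0.858 ± 0.148 RPKM in adults, against 1.86 ± 0.111 RPKM in neonates. Of the 8 myeloid genes 4 were below all neonate libraries in WT adults, and Cd14 was above. Both mast cell genes were lower in every adult library than in every neonate library, with 1.91 ± 1.39 RPKM in adults, against 8.90 ± 2.01 RPKM in neonates for Mcpt1 in WT.

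Class II genes overlapped between ages in WT for 5 of 6. The exception in CPM, H2-DMa, has an exon length of 1650 bases in the adult table and 776 in the neonate table, so its reads were counted over different exons. Per length, Pigr, Igj and Cd74 were the highest of the 37 genes in WT adults, at 433, 158 and 81.8 RPKM, and Cd74 and H2-Aa were the highest in WT neonates, at 74.1 and 67.4 RPKM. The SD of Cd74 was 31.3 RPKM in WT adults, where H2-Aa had 54.3 ± 20.7 RPKM. In CPM, which does not divide by exon length, Cd74 was above H2-Aa in each WT adult library.

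**Figure D5:**
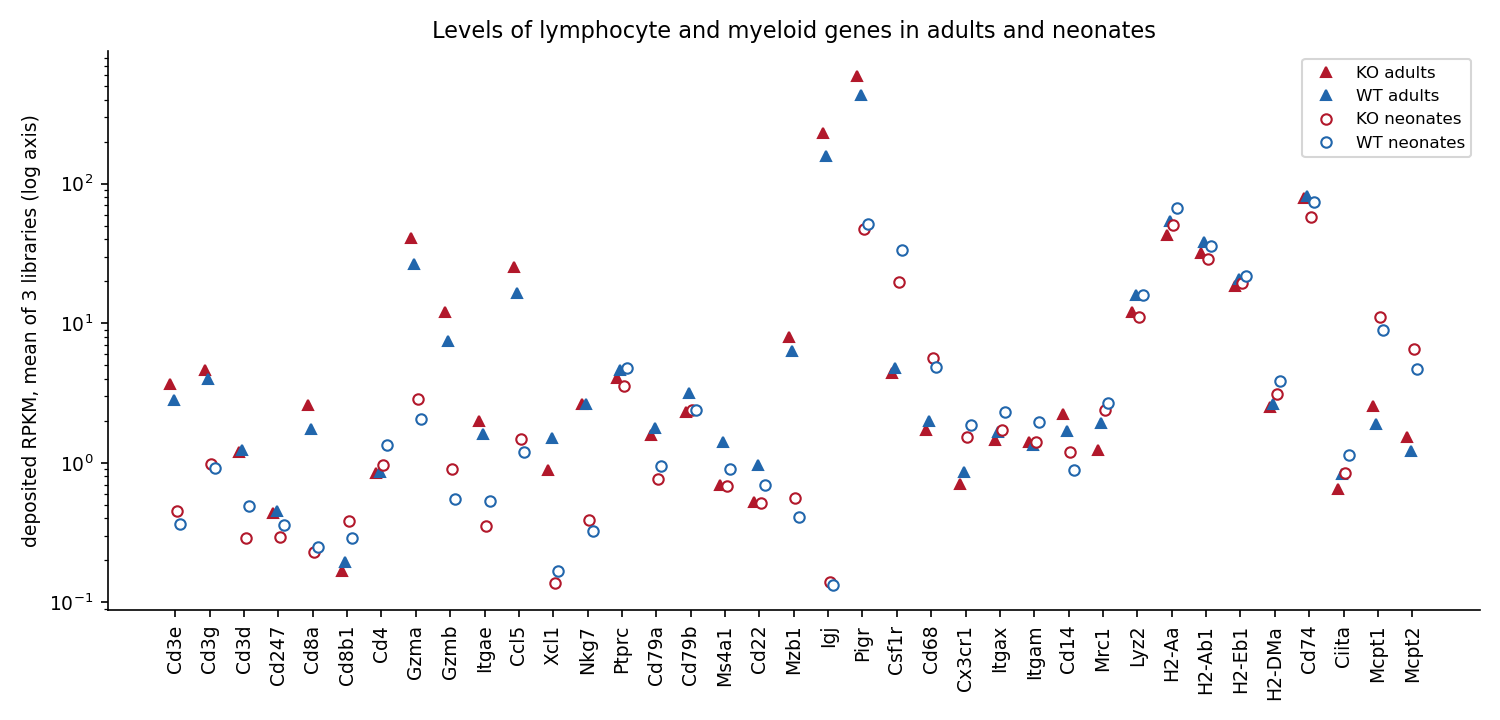
Mean deposited RPKM over 3 libraries (y axis, log axis) of each of the 37 genes (x axis, by lineage) in KO adults, WT adults, KO neonates and WT neonates, with triangles for adults and open circles for neonates. Igj lies at 158 RPKM in WT adults and 0.134 RPKM in WT neonates, while Cd74 lies at 81.8 RPKM in WT adults and 74.1 RPKM in WT neonates.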

How the data were processed

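Whole small intestine was profiled by stranded mRNA sequencing with 36-base reads in 12 libraries. Reads were aligned with Bowtie 0.12.2 to mm9, per the submitters' processing notes, and HOMER counted them in exons, using the opposite strand, per the file headers. How reads matching several genes were handled is not stated. The deposited columns named reads hold a signal: whole reads, scaled by a single factor in each library. In a check 100% of values were whole reads within 0.01 deposited units. CPM was computed from them. The deposited RPKM values use a larger library total, of which 45.1% lay in genes in WT adults 3 and at least 50.6% in the others. The authors also deposited log2 fold changes and p-values of their own, which are not printed.

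Log2(CPM + 1) was tested with limma 3.58.1 (trend, robust; R 4.3.3) within each age, and over both ages for the difference of effects, after checking on simulated data. Alternatives were TMM factors, the RPKM total, a pseudocount of 0.25, no filter, at least 5 CPM in 3 libraries, edgeR 4.0.16 and DESeq2 1.42.0 on recovered reads, a replicate block, and leaving out libraries. Some genes of the wider lists are not reported here and are in no list count. The members and lists were chosen with earlier results of these data known. All members are named; of other lists, called genes were named, at most 4 with the lowest adjusted p per list and comparison. Windows of 36 bases were compared among transcripts of the reference annotation of the same build. Correlations of same-numbered KO and WT libraries did not show that numbers pair samples. Depth was lowest in KO neonates 3, with 5930748 reads in genes.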

Additional observations from a re-analysis of the deposited data

Results flagged for a closer look

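In 4 genes of the wider lists the KO effect differed between ages by limma's test of that difference (adult effect minus neonate effect, log2, adjusted over all tested genes). None of the 37 genes did. That test called 5.46% of all 14588 genes, and the count of 4 is not read as a result about these lists. Derl3 had a difference of 1.06 ± 0.30 (SE), limma adjusted p = 0.0393, with effects of 0.52 in adults and -0.54 in neonates. That call ended in 9 of 12 fits that left out 1 library, all but those without KO neonates 2, WT neonates 1 and KO adults 1, with adjusted p of up to 0.112, and edgeR gave an adjusted p of 0.0728. Hpgds had 0.798, limma adjusted p = 0.00225, with effects of -0.26 in adults and -1.06 in neonates. Ccl25 had -0.696, limma adjusted p = 8.47e-05, with 515, 466 and 482 CPM in KO adults, against 555, 552 and 519 CPM in WT adults, and 222, 197 and 214 CPM in KO neonates, against 149, 139.8 and 145 CPM in WT neonates. Cxcl16, which was chosen after its values were seen, encodes a chemokine that binds CXCR6 of T cells and had 0.716, limma adjusted p = 0.00152, with 71.6, 62.6 and 65.9 CPM in KO adults, against 57.9, 50.4 and 47.8 CPM in WT adults, and 33.4, 28.7 and 27.7 CPM in KO neonates, against 40.4, 37.5 and 37.9 CPM in WT neonates. Its groups did not overlap at either age, in opposite directions. The calls of Hpgds, Ccl25 and Cxcl16 held in each of 12 fits that left out 1 library.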

How the results depend on the processing

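Members called in adults numbered 3 in the main test, 5 with TMM, 4 with edgeR, 7 with DESeq2 (6 higher, 1 lower) and 5 with both adult libraries numbered 1 left out; leaving out 1 library gave 1 (without WT adults 2) to 8 (without WT adults 3), and 5 without WT adults 1. Members called in neonates numbered 7, against 4 with TMM, 2 with edgeR, 1 with DESeq2 and 3 (without WT neonates 1) to 7 with 1 library left out, including 4 each without KO neonates 2, KO neonates 3 or WT neonates 2. For the difference of effects the count was 0, and 1 (Csf1r) with the RPKM total, and 0 to 1 with 1 library left out. Genes called were 2611 in adults, against 1337 with the RPKM total and 1281 (without KO adults 3) to 2552 with 1 library left out, including 1605 without KO adults 2 and 1483 without WT adults 2, 3009 in neonates, against 1574 with DESeq2 and 2020 to 2581 with 1 library left out, and 796 for the difference of effects, against 517 (without WT neonates 2) to 1047 with 1 library left out, including 529 without KO adults 3. TMM moved the split of called genes to 1334 higher and 857 lower in adults, against 741 and 1870, and to 1278 and 1098 in neonates, against 741 and 2268. The cause of these changes was not tested.

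Same-numbered KO and WT libraries had correlations of deviations of 0.0616, -0.212 and -0.121 in adults and 0.160, 0.139 and 0.0286 in neonates, and 0 of 3 pairs in adults and 2 of 3 in neonates were over 0.1, the minimum set for each pair, so pairing by number was not shown. As a hint from the data, 1 of 6 libraries in adults and 5 of 6 in neonates correlated best with their own number. With a replicate block 7 members were called in adults (3 higher and Lyz2, Cd22, H2-Aa and Ptprc lower) and 9 in neonates, where it added Mcpt2 higher (adjusted p = 0.0353) and H2-Ab1 lower (0.0195). Genes called with the block were 2272 in adults, 3575 in neonates and 792 for the difference of effects.

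No called member changed sign in any setting run. Of 83 values of called members under the other settings, 66 stayed called. The sign of the log2 difference changed only in uncalled members, to these values: with TMM factors in adults Nkg7 0.051, Cd4 0.047, Cd247 0.050, Itgam 0.077 and Cd74 0.032, and in neonates Pigr 0.071, Cd8a 0.058, Mrc1 0.00055 and Cd79a 0.0064; with edgeR in adults Nkg7 0.00020, Itgam 0.075 and Cd79a -0.14, and in neonates Pigr 0.080, Cd8a 0.090, Mrc1 0.023 and H2-Eb1 0.012; with DESeq2 in adults Nkg7 0.0019, Itgam 0.076 and Cd79a -0.13, and in neonates Pigr 0.080, Cd8a 0.080, Mrc1 0.019 and H2-Eb1 0.0080; with a pseudocount of 0.25 in adults Cd247 0.0052, and in neonates Cd8a 0.021; with the RPKM total in adults Nkg7 0.026, Cd4 0.018, Cd247 0.0077, Itgam 0.059 and Cd74 0.017; with both adult libraries numbered 1 left out in adults Mcpt1 -0.28, Mcpt2 -0.20, Nkg7 0.19, Cd4 0.034 and Cd74 0.087. With 1 library left out, the log2 differences that changed sign ranged, in adults Cd247 -0.30 to 0.17, Cd3d -0.31 to 0.023, Cd3g -0.028 to 0.24, Cd4 -0.31 to 0.11, Cd74 -0.34 to 0.12, Cd79a -0.31 to 0.55, Cd79b -0.69 to 0.26, Ciita -0.53 to 0.0041, Itgam -0.14 to 0.019, Mcpt1 -0.26 to 0.67, Mcpt2 -0.18 to 0.41, Ms4a1 -1.20 to 0.26, Mzb1 -0.0068 to 0.42 and Nkg7 -0.22 to 0.16, and in neonates Cd22 -0.50 to 0.077, Cd247 -0.31 to 0.11, Cd79a -0.37 to 0.29, Cd79b -0.30 to 0.46, Cd8a -0.22 to 0.19, Mcpt1 -0.15 to 0.50, Ms4a1 -0.54 to 0.061 and Pigr -0.12 to 0.041. With 1 library left out, 40 of 60 values of called members stayed called. In neonates 4 members did not reach 1 CPM in 3 libraries and were not tested.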

Other observations

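Of 12 granulocyte genes, 3 were tested at each age. Limma, edgeR and DESeq2 called none, with 1 at an unadjusted p under 0.05 at each age, and limma with TMM called 1 higher in adults. Their summed level was 10.8 to 17.8 CPM in KO adults, against 15.2 to 26.4 CPM in WT adults, and 6.41 to 8.90 CPM in KO neonates, against 9.61 to 10.8 CPM in WT neonates.

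For the tissue markers that follow, the summed levels of KO and WT libraries overlapped at each age given. Pancreatic enzyme genes summed to 272 to 1852 CPM in KO adults, against 1720.1 to 5152 CPM in WT adults, and to 548 to 1589 CPM in KO neonates, against 837 to 2801 CPM in WT neonates. Endothelial genes summed to 60.3 to 69.9 CPM in KO adults, against 58.8 to 70.7 CPM in WT adults, and to 299 to 315 CPM in KO neonates, against 285 to 303 CPM in WT neonates. Red blood cell genes summed to 17.1 to 25.5 CPM in KO adults, against 19.3 to 37.6 CPM in WT adults, adipocyte genes to 8.98 to 19.0, against 8.16 to 25.4 CPM, and proliferation genes to 343 to 415, against 379 to 515 CPM. In neonates these sums were 83.6 to 91.9 CPM in KO, against 67.7 to 151 CPM in WT, for red blood cells, 0.631 to 1.68, against 0.948 to 5.89 CPM, for adipocytes, and 463 to 486, against 450.5 to 498 CPM, for proliferation. Smooth muscle genes summed to 1559 to 1749 CPM in KO adults, against 1673 to 2128 CPM in WT adults, and to 2378 to 2784 CPM in KO neonates, against 2455 to 3454 CPM in WT neonates. Follicle and M cell genes summed to 74.4 to 84.7 CPM in KO neonates, against 84.6 to 89.5 CPM in WT neonates.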
